A study of Mus musculus with 6 samples.

Results

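The 9 genes H19, Igf2, Afp, Gpc3, Dlk1, Meg3, Cd24a, Ly6d and Tspan8 mark the fetal liver or the injured hepatocyte; they are the members described here. They were named as a list of symbols, with earlier results of these data known. Of these 9 genes, 8 were found by symbol among the 29734 genes of the expression table, and Igf2 was not analysed here. The libraries were made from liver of male mice that ate a Western diet, rich in fat and sugar, for 20 weeks from 8 weeks of age. In the Prdx1 C52S group (3 libraries, replicates 1, 2 and 4), cysteine 52 of peroxiredoxin 1, a thiol peroxidase, was replaced by serine. The WT group (3 libraries, replicates 6, 8 and 9) had the same sex, diet and tissue, and no chow-fed group was analysed here, so that a response to the diet itself is not measured. Whether the mutant mice carried 1 or 2 copies of the allele is not given in the sources used here.

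Hepatoblasts of the fetal liver secrete alpha-fetoprotein and transcribe the imprinted pairs H19 and Igf2 on chromosome 7 and Dlk1 and Meg3 on chromosome 12. Most of these genes are silenced soon after birth, and repressors such as Zhx2 and Zbtb20 take part in that silencing. They can return in regeneration, chronic injury and hepatocellular carcinoma. Cd24a, Ly6d and Tspan8 encode surface proteins that are found on progenitor cells, duct epithelium or hepatocytes under stress. The comparison addressed whether transcripts of this kind are present at other levels in Prdx1 C52S than in WT liver.

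H19 is the host transcript of a microRNA, and its mature forms are shown because they are the best known product of this noncoding RNA. Both lie inside H19 on the minus strand of chromosome 7, and the sequences are those of RefSeq on GRCm38.p6. Capitals mark the seed, bases 2 to 8.
mmu-miR-675-5p (chr7:142577112-142577133): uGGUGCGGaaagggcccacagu
mmu-miR-675-3p (chr7:142577078-142577099): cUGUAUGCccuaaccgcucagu
The 2 seeds differ, and 0 others of the 1679 mature mouse microRNAs in the table carry either of them. The libraries were selected for poly(A) tails, so that mature microRNAs are not measured here. The row of the hairpin, Mir675, held 1 estimated count in each library.

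The promoters of Afp and Tspan8 are shown because these genes were the least and the most variable of the 7 members tested across the 6 libraries. Each runs from 250 bases before to 50 bases after the RefSeq start site on the plus strand of GRCm38.p6. On both strands, 3 motifs were searched: GTTAAT (a motif known from promoters of liver genes), GGAATG (the TEAD factors, partners of YAP) and TATAAA (the TATA box). Capitals mark their matches.
Afp (chr5:90490464-90490763): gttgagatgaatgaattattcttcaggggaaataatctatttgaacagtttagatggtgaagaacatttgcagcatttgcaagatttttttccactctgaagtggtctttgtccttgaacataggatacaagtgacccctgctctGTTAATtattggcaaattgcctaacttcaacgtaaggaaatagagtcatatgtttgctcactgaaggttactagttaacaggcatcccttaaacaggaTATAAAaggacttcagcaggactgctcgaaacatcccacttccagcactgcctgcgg
Tspan8 (chr10:115817034-115817333): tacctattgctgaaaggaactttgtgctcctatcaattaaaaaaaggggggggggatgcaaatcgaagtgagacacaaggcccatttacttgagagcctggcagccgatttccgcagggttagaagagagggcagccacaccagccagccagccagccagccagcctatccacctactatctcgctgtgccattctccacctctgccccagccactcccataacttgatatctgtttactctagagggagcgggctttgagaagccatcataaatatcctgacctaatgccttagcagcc
The Afp promoter held 1 GTTAAT motif and 1 TATA box, whose first base lies 7 bases before the RefSeq start and 30 bases before the GENCODE start of the gene. The Tspan8 window held none of the 3 motifs, but it lies wholly inside the GENCODE gene, past the start at 115816832, so that it does not cover that start. Among 32851 promoters of this length, 7.1% held the GTTAAT motif, 14.7% the TEAD motif and 13.6% the TATA box. Promoter entries were found for 6 of the 9 members, and Gpc3 had the highest share of G and C (70.7%, against a median of 52.7% over all promoters). These matches are letters in a window and were not tied to the levels that follow.

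Estimated counts per library summed to between 60326469 and 76164949, at about 4 counts per fragment. Levels are FPKM (fragments per kilobase of transcript, scaled to the size of the library). Fold changes are on the log2 scale, with WT as the base, and come from edgeR after TMM scaling. TMM rescales libraries to a common bulk of genes, and without it the median gene moved by -0.31 on the log2 scale. With all 6 libraries, 0 of 18931 genes tested passed adjusted p 0.05 in either direction (0% higher and 0% lower in the background), and 11.5% were higher and 14.8% lower at unadjusted p under 0.05. DESeq2 called 1145 higher and 1698 lower. WT 8 stood apart from the other libraries, with Krt19, a bile duct keratin, at 30.9 FPKM and Glul, a pericentral enzyme, at 33.3, against at most 3.97 and at least 253 in the other 5. These genes were named to describe that library. Over all genes tested, its TMM factor was 1.28, against 0.883 to 1.04 in the others. Its mean correlation with the other libraries was 0.937, against 0.958 to 0.966. Results for members and lists are therefore given with and without WT 8, and for other named genes where stated. The labels number the replicates but do not say that each is a separate mouse, so that p-values measure the spread between these samples, which may be technical. Prdx1 itself lay between 232 and 270 FPKM in all libraries. A change of 1 residue leaves its transcript in place, so that this level does not check the genotype.

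Of the 8 members, 7 passed the filter on low counts, and none of them passed adjusted p 0.05 with all libraries in the edgeR quasi-likelihood test. Fold changes were negative for 5 (Tspan8, Cd24a, H19, Ly6d and Gpc3) and positive for 2 (Afp and Meg3), with a median of -0.61 beside -0.03 over all genes tested. At unadjusted p under 0.05, 2 of the 7 were lower (Cd24a and Tspan8, background 14.8%) and 0 were higher (background 11.5%). The same 2 had groups that did not overlap after TMM scaling, where 18% of all genes tested had every Prdx1 C52S library below every WT library. With 7 genes, these counts say little beyond the background. The levels spanned a wide range. Averaged over the 6 libraries, Ly6d was at 107 FPKM, above 98.7% of all genes in the table, followed by Cd24a at 14.6, Tspan8 at 12.1, H19 at 2.67, Afp at 0.834, Gpc3 at 0.331, Meg3 at 0.210 and Dlk1 at 0.00686. Cd24a lay above Tspan8 in each of the 6 libraries, although by less than the spread of either gene.

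**Figure D1:**
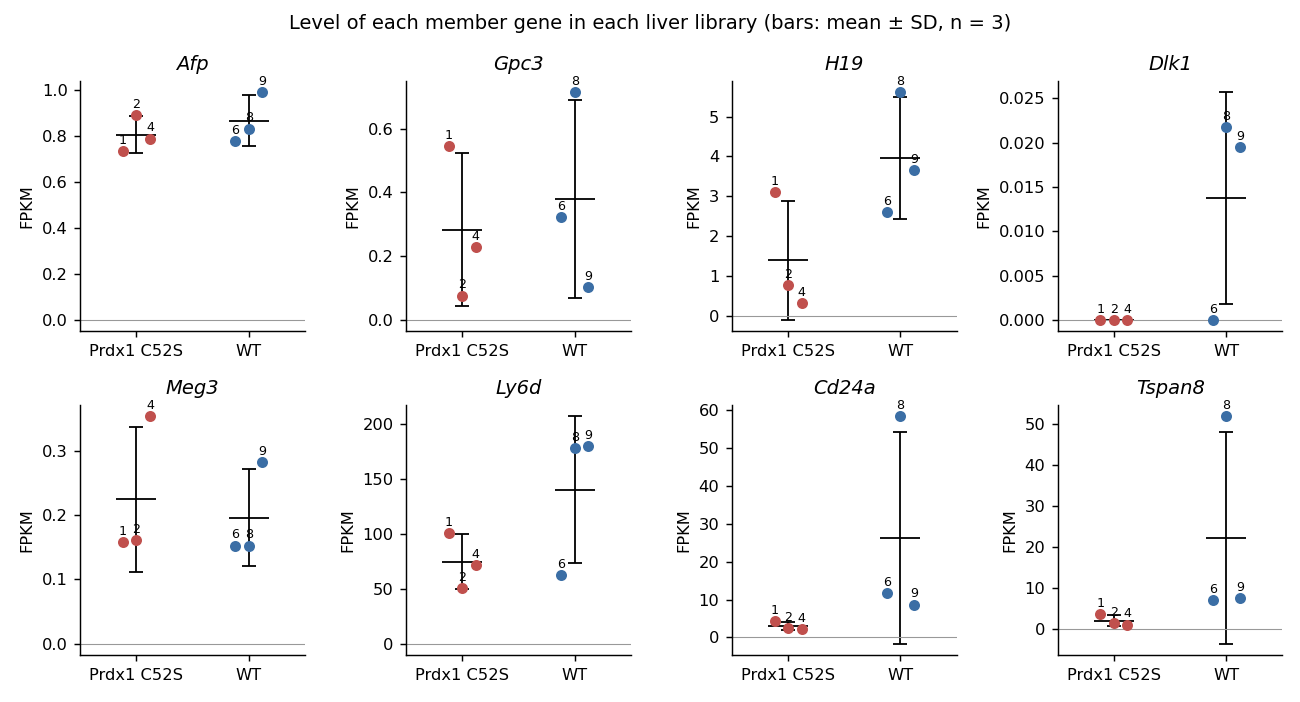
FPKM of the 8 members analysed in each liver library, with Prdx1 C52S at the left and WT at the right of each panel; points are single libraries with their replicate number and bars are the mean ± SD (n = 3), each panel having its own axis. Afp lies between 0.733 and 0.988 in all libraries, whereas WT 8 lies far above the rest for Cd24a (58.4) and Tspan8 (52.02).

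Afp encodes alpha-fetoprotein, the main plasma protein of the fetus, whose place albumin takes in the adult. It was at 0.733, 0.890 and 0.787 FPKM in Prdx1 C52S 1, 2 and 4, against 0.775, 0.830 and 0.988 in WT 6, 8 and 9. The groups overlapped, and the highest library was only 1.35 times the lowest. Means were 0.803 ± 0.0799 and 0.864 ± 0.110 (SD, n = 3). The log2 fold change was 0.17 (SE 0.24, adjusted p = 0.686 in edgeR) and 0.05 without WT 8, and its sign turned to -0.12 when only library totals were used. Albumin (Alb) was at between 18116 and 22278 FPKM, so that both groups had the adult pattern of high Alb and low Afp. WT 8 was no exception, although its bile duct transcripts were high. Each Afp value rests on between 44.75 and 69.5 fragments. An antisense gene, Gm43449, overlaps Afp, the libraries kept strand by dUTP marking, and whether reads were assigned by strand is not given in the sources used here. Afp (ENSMUSG00000054932) lies on the plus strand of chromosome 5, from 90490737 to 90508907.

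Gpc3 encodes glypican 3, a heparan sulphate proteoglycan of the cell surface that is made in fetal liver and in hepatocellular carcinoma. Its FPKM was 0.545, 0.0762 and 0.227 in Prdx1 C52S 1, 2 and 4, against 0.322, 0.714 and 0.103 in WT 6, 8 and 9. Each group held both high and low libraries, the groups overlapped, and the highest library (WT 8) was 9.37 times the lowest (Prdx1 C52S 2). The log2 fold change was -0.06 (SE 0.80, adjusted p = 0.973 in edgeR). It moved to -0.93 without Prdx1 C52S 1, to 0.39 without Prdx1 C52S 2, to 0.60 without WT 8 and to -0.48 without WT 9, so that its direction rests on single libraries. The lowest value, in Prdx1 C52S 2, corresponds to only 4.5 fragments. The sum of markers of mesothelium, the cell layer that covers the liver, ran in nearly the same order as Gpc3 across libraries. The 7 markers (Msln, Upk3b, Upk1b, Wt1, Muc16, Lrrn4 and Gpm6a) summed to 5.62, 1.12 and 2.00 FPKM in Prdx1 C52S 1, 2 and 4 and to 3.05, 5.46 and 1.72 in WT 6, 8 and 9. Gpc3 divided by that sum lay between 0.0597 and 0.131, a range of 2.19 times. Of the 7, 3 were at 0 in Prdx1 C52S 2 (Lrrn4, Upk1b and Muc16), and 0 of the 5 tested passed unadjusted p 0.05. The part of mesothelial cells in the Gpc3 values was not tested. Gpc3 (ENSMUSG00000055653) spans 341525 bases of the X chromosome, from 52272426 to 52613950 on the minus strand, and overlaps 2 antisense genes.

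H19 is a maternally expressed long noncoding RNA that is abundant in fetal liver. It was at 3.10 FPKM in Prdx1 C52S 1, 0.759 in Prdx1 C52S 2 and 0.310 in Prdx1 C52S 4. In WT 6, 8 and 9 it was at 2.59, 5.61 and 3.66. Prdx1 C52S 2 and 4 lay below every WT library, while Prdx1 C52S 1 lay above WT 6, so that the groups overlapped. Means were 1.39 ± 1.496 and 3.95 ± 1.53 (SD, n = 3), and the log2 fold change was -1.19 (SE 0.75, adjusted p = 0.351 in edgeR). Without Prdx1 C52S 1 it was -2.52 (adjusted p = 0.156 in edgeR), and without Prdx1 C52S 4 it was -0.72. Leaving out WT 8 left it at -0.98. Prdx1 C52S 1 was also the library with the highest sum of mesothelial markers and, within its genotype, of cholangiocyte markers, whose part in its H19 level was not tested. H19 divided by the mesothelial sum spanned 13.7 times, and WT 9 had H19 at 3.66 with a sum of only 1.72. The H19 values correspond to between 13 and 286.5 fragments. H19 (ENSMUSG00000000031, a long intergenic noncoding RNA in GENCODE) lies on chromosome 7 from 142575529 to 142578143.

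Dlk1 and Meg3 form the imprinted pair of chromosome 12, 77665 bases apart on the plus strand. Dlk1 encodes a non-canonical Notch ligand of hepatoblasts. It was listed at 0 in all Prdx1 C52S libraries and in WT 6, at 0.0217 FPKM in WT 8 and at 0.0194 in WT 9. The last pair of values rests on about 2.75 and 2.5 fragments. A count of 0 allows up to 3 fragments, or between 0.0230 and 0.0291 FPKM in these libraries, for counting error only. No difference in Dlk1 was therefore detectable at this depth, and it did not pass the filter. Meg3, a long noncoding RNA expressed from the maternal allele, was at 0.158, 0.161 and 0.354 FPKM in Prdx1 C52S 1, 2 and 4. In WT 6, 8 and 9 it was at 0.152, 0.152 and 0.283. Each group held 1 library above the rest and 2 that were nearly equal, and the groups overlapped. The log2 fold change was 0.46 (SE 0.44, adjusted p = 0.542 in edgeR), and it was -0.03 without Prdx1 C52S 4, 0.24 without WT 8 and 0.89 without WT 9. Rian, a maternally expressed RNA further along the same cluster, was highest in the same 2 libraries, at 0.0557 in Prdx1 C52S 4 and 0.0330 in WT 9, against at most 0.0307 in the others. The WT 9 value was close to the next one, and Rian was named after its values were seen. Its order therefore gives no support to that of Meg3. Meg3 shares near-identical stretches of at least 805 bases with Gm26906, which lies on its other strand, and with Gm27000, and how reads common to such copies were assigned is not given.

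Ly6d encodes a small surface protein with a lipid anchor. It is a marker of lymphoid progenitors and has been described in hepatocytes of diseased liver. It was the most abundant member, at 101, 50.8 and 71.4 FPKM in Prdx1 C52S 1, 2 and 4, against 62.5, 178 and 179 in WT 6, 8 and 9. WT 8 and WT 9 were the high libraries, while WT 6 lay among the Prdx1 C52S libraries, so that the groups overlapped. Means were 74.3 ± 25.1 and 140 ± 67.0 (SD, n = 3). The log2 fold change was -0.61 (SE 0.41, adjusted p = 0.381 in edgeR), -0.52 without WT 8, -0.94 without WT 6, -0.40 without Prdx1 C52S 2 and -0.28 without WT 9. With limma-voom and library weights, which gave WT 8 a weight of 0.238 and WT 9 one of 0.698, it was -0.09. Ly6d kept a less steady ratio to Epcam and Krt19 than Cd24a and Tspan8 did. Divided by the sum of 18 cholangiocyte markers, Ly6d spanned 5.73 times, against 4.10 times for Tspan8 and 2.07 times for Cd24a. WT 9 equalled WT 8 in Ly6d while its Krt19 was 2.09 FPKM against 30.9, and Ly6d divided by Epcam spanned 13.5 times. Of the 9 B cell markers, 2 were lower at unadjusted p under 0.05 (22.2%, background 14.8%). The FPKM of all 9 summed to between 2.57 and 3.60 in Prdx1 C52S and between 3.13 and 6.98 in WT. Without WT 8, 1 of the 9 was lower (11.1%, background 11.1%). All 9 were detected in every library, and the part of B cells in the Ly6d values was not tested. Ly6d (ENSMUSG00000034634) lies on the minus strand of chromosome 15, from 74762056 to 74763620, with no overlapping gene.

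Cd24a encodes a heavily glycosylated, lipid-anchored surface protein of epithelial progenitors, bile duct cells and several blood cells. It was at 4.28, 2.36 and 2.28 FPKM in Prdx1 C52S 1, 2 and 4, against 11.7, 58.4 and 8.65 in WT 6, 8 and 9. Every Prdx1 C52S library lay below every WT library, and WT 8 stood far above the other WT libraries. The log2 fold change was -2.73 (SE 0.69, adjusted p = 0.0962 in edgeR). Without WT 8 it shrank to -1.59 with a smaller error (SE 0.30, adjusted p = 0.0482 in edgeR), in a fit where 1.94% of genes tested were called lower. DESeq2 called it with all libraries (DESeq2 adjusted p = 0.00762), and so did limma-voom with library weights (-1.92, limma adjusted p = 0.0338). These methods called many genes: 1698 of 29734 were lower with DESeq2 and 962 of 18931 with limma-voom, against 0 in edgeR. A two-sided exact permutation test gave p = 0.1, the smallest that 3 against 3 libraries allow. Cd24a was thus lower in 3 of 3 Prdx1 C52S libraries under each of these fits, and its size depended on WT 8. In bulk tissue, fewer cells of a type and less RNA per cell cannot be told apart. Cd24a (ENSMUSG00000047139) lies on the plus strand of chromosome 10, from 43578284 to 43584265, and its transcript shares 218 bases at 96.8% identity with the processed pseudogene Gm6212.

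Tspan8 encodes a tetraspanin, a membrane organiser with 4 passes, of digestive tract and duct epithelium. It was at 3.55, 1.49 and 1.02 FPKM in Prdx1 C52S 1, 2 and 4, against 7.07, 52.02 and 7.55 in WT 6, 8 and 9. The groups did not overlap, WT 6 and WT 9 were nearly equal, and the highest library was 50.8 times the lowest, the widest range of the 7 members tested. The log2 fold change was -3.03 (SE 0.85, adjusted p = 0.107 in edgeR) and -1.66 without WT 8 (SE 0.52, adjusted p = 0.149 in edgeR). DESeq2 called it with all libraries (DESeq2 adjusted p = 0.0156), among 1698 of 29734 genes that it called lower. A two-sided exact permutation test again gave its smallest p of 0.1. Tspan8 (ENSMUSG00000034127) lies on the plus strand of chromosome 10, from 115816832 to 115849620. The antisense gene 4930422I22Rik overlaps all of it and was at no more than 0.0921 FPKM.

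**Figure D2:**
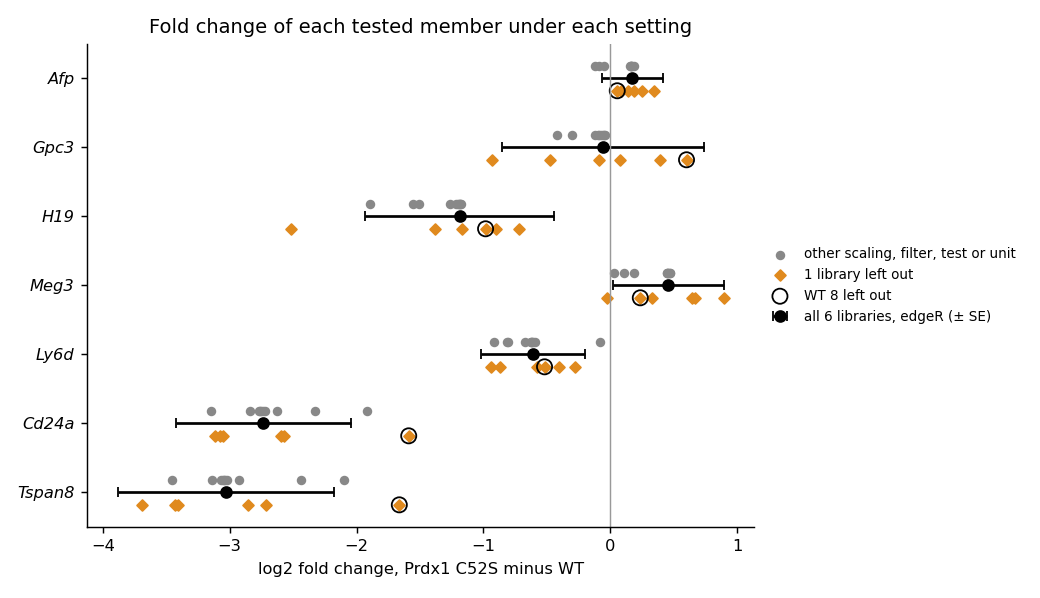
Log2 fold change (Prdx1 C52S minus WT) of the 7 members tested; black points are edgeR with all libraries (± SE), diamonds leave out 1 library each, circles ring the fit without WT 8, and grey points are other scalings, filters, tests or units. Cd24a and Tspan8 stay below 0 throughout and shrink to -1.59 and -1.66 without WT 8, while Afp, Gpc3 and Meg3 fall on both sides of 0.

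Cd24a and Tspan8 ran beside bile duct markers in every library. Epcam, an adhesion molecule of duct epithelium, was at 2.77, 1.16 and 1.18 FPKM in Prdx1 C52S 1, 2 and 4, against 6.99, 39.7 and 4.37 in WT 6, 8 and 9. Cd24a divided by Epcam was 1.55, 2.04 and 1.92 in Prdx1 C52S, against 1.68, 1.47 and 1.98 in WT. This ratio spanned 1.38 times, whereas the level of Cd24a spanned 25.7 times. Group means of the ratio were 1.83 ± 0.257 and 1.71 ± 0.255 (SD, n = 3), a difference smaller than the spread within either group. Tspan8 divided by Epcam was 1.28, 1.28 and 0.865 in Prdx1 C52S and 1.01, 1.31 and 1.73 in WT, a range of 2.00 times. Over the 18 single cholangiocyte markers, the range of the Cd24a ratio was narrowest to Anxa13, at 1.18 times, and its median was 2.34 times. The range of the Tspan8 ratio was narrowest to Ehf, at 1.56 times, with a median of 2.54 times. To the sum of the 18 markers, the ratio of Cd24a spanned 2.07 times, and it was 0.0606 in WT 8 against at most 0.0345 elsewhere. That of Tspan8 spanned 4.10 times, not far from H19 at 5.32 times and Ly6d at 5.73 times. Divided by Epcam, H19 spanned 7.91 times, Gpc3 10.9 times and Afp 36.7 times. Afp itself spanned only 1.35 times, so that the range of its ratio is mostly that of Epcam, at 34.2 times.

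The cholangiocyte markers themselves were lower in Prdx1 C52S. All 18 had negative fold changes, 17 were lower at unadjusted p under 0.05 (94.4%, background 14.8%) and 0 at adjusted p 0.05, with a median of -2.81. Without WT 8 the median was -1.49, with 13 of 18 at unadjusted p under 0.05 (72.2%, background 11.1%) and 1 at adjusted p 0.05. Their summed level was between 74.0 and 146 FPKM in Prdx1 C52S and between 251 and 963 in WT, and none was at 0 in any library. Cd24a is also found on neutrophils and red cell precursors. The 10 neutrophil markers summed to between 5.37 and 24.99 FPKM in Prdx1 C52S and between 26.4 and 34.5 in WT. Of 9 tested, 2 were lower at unadjusted p under 0.05 (22.2%, background 14.8%), and 2 without WT 8 (22.2%, background 11.1%). The 10 erythroid markers ran the other way, with 252 to 1085 FPKM in Prdx1 C52S and 129 to 278 in WT. Of 7 tested, 4 were higher at unadjusted p under 0.05 (57.1%, background 11.5%), against 0 of 8 without WT 8 (0%, background 11.2%). The part of these cells in the Cd24a and Tspan8 differences was not tested.

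**Figure D3:**
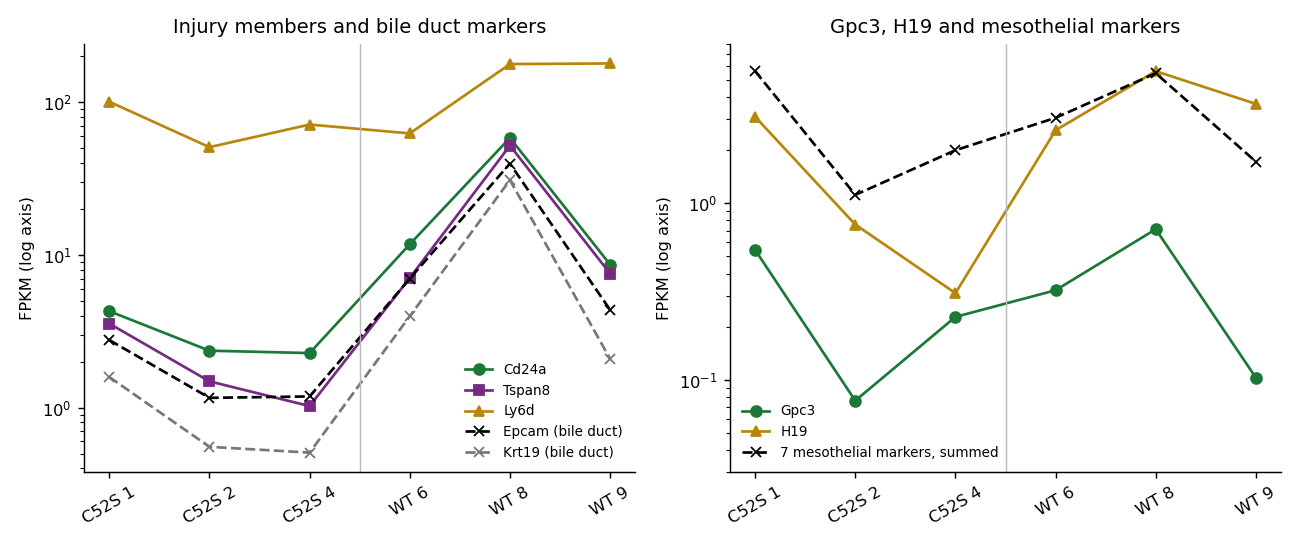
FPKM on a log axis in each library, Prdx1 C52S left and WT right of the vertical line; lines join points of 1 gene only to guide the eye, since replicates have no order. At the left, Cd24a and Tspan8 follow Epcam and Krt19 through a peak in WT 8 while Ly6d does not, and at the right Gpc3 and the sum of 7 mesothelial markers are lowest in Prdx1 C52S 2 whereas H19 is lowest in Prdx1 C52S 4.

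Other genes of the fetal liver and of oncofetal growth were mostly lower, as far as direction goes. Of 26 rows tested (Aldoa standing on 2 of them), 22 had negative fold changes, 12 were lower at unadjusted p under 0.05 (46.2%, background 14.8%) and 0 were higher (background 11.5%). The median was -0.97 and lay at -0.52 without WT 8, where 11 were lower (42.3%, background 11.1%). None passed adjusted p 0.05 in edgeR with all libraries. The leading genes were Golm1, a Golgi protein that rises in liver disease (log2 fold change -1.61), the lipase Lpl (-0.54), the growth factor midkine, Mdk (-2.55, and -1.58 without WT 8), and Epcam (-2.90, and -1.55 without WT 8). Their edgeR adjusted p without WT 8 was 0.0538 for Golm1, 0.0601 for Lpl, 0.0796 for Mdk and 0.112 for Epcam. The genes Epcam and Sox9 of this list also stand in the cholangiocyte list. At 42.3%, the share of genes whose groups did not overlap with Prdx1 C52S lower was above the 18% over all genes.

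Genes of the injured hepatocyte followed the same direction. Of 38 tested, 17 were lower (44.7%, background 14.8%) and 3 higher (7.89%, background 11.5%) at unadjusted p under 0.05, with a median of -0.61. Without WT 8 the median was -0.56, with 19 lower (50%, background 11.1%), so that this list depended less on that library than Cd24a and Tspan8 did. The annexin Anxa1 was at 3.16, 2.69 and 3.26 FPKM in Prdx1 C52S, against 5.57, 6.48 and 5.23 in WT (log2 fold change -0.63, SE 0.11, edgeR adjusted p = 0.0716, and 0.0400 without WT 8). Lcn2, lipocalin 2, an iron-binding acute phase protein of stressed hepatocytes and neutrophils, was at 21.5, 11.4 and 18.9 in Prdx1 C52S, against 43.0, 60.8 and 92.6 in WT (-1.65, edgeR adjusted p = 0.0819, and 0.126 without WT 8). The aldo-keto reductase Akr1b8 had a log2 fold change of -0.89 (edgeR adjusted p = 0.0894, and 0.0515 without WT 8). In each of these genes every Prdx1 C52S library lay below every WT library, but they were named for the smallest p, which favours such an order. Over the list, 15 of 38 had that order (39.5%, background 18%).

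Imprinted genes outside the members had fold changes in both directions. Of 26 tested, 14 fold changes were positive and 12 negative, with a median of 0.13 that turned to -0.18 when only library totals were used. At unadjusted p under 0.05, 4 were higher (15.4%, background 11.5%) and 2 lower (7.69%, background 14.8%). Without WT 8 these were 4 and 1 (15.4% and 3.85%, backgrounds 11.2% and 11.1%). After TMM scaling, 8 had every Prdx1 C52S library above every WT library (30.8%, background 16.9%) and 2 had every one below (7.69%, background 18%). Grb10, an adaptor that restrains insulin and IGF signalling, was at 0.638, 0.514 and 0.628 FPKM in Prdx1 C52S, against 1.42, 3.00 and 0.967 in WT (log2 fold change -1.24, adjusted p = 0.0949 in edgeR). It was at -0.81 without WT 8 (edgeR adjusted p = 0.0583). Among the genes with positive values were Zrsr1 (0.57), the transporter Slc22a18 (0.39) and Snrpn (0.69), each of which had groups that did not overlap after TMM scaling.

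Regulators of the fetal programme were close to the background. Of 27 tested, 4 were lower (14.8%, background 14.8%) and 1 higher (3.7%, background 11.5%) at unadjusted p under 0.05, with a median of -0.04. Without WT 8 these were also 4 and 1 (backgrounds 11.1% and 11.2%), with a median of -0.03. The Afp repressor Zhx2 was at 3.70, 3.47 and 3.36 FPKM in Prdx1 C52S, against 4.73, 4.96 and 4.54 in WT, with a log2 fold change of only -0.15 after TMM scaling (adjusted p = 0.390 in edgeR). Zbtb20, the other repressor, was at 0.01 (adjusted p = 0.986 in edgeR), and the hepatocyte factor Hnf4a at 0.23 (adjusted p = 0.489 in edgeR). The genes with the smallest p were the liver factor Foxa3 (-0.65, edgeR adjusted p = 0.0819, and 0.0471 without WT 8) and the YAP partners Tead1 (-0.84), Tead2 (-1.65, and -0.78 without WT 8) and Tead4 (-1.66, and -0.81 without WT 8). For Tead1, Tead2 and Tead4, edgeR adjusted p without WT 8 was 0.0509, 0.207 and 0.426.

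In the IGF system, the ligand Igf1 was at between 25.2 and 35.4 FPKM with a log2 fold change of 0.04 (adjusted p = 0.895 in edgeR), and Igf2r, the imprinted clearance receptor of IGF2, was at 0.05 (adjusted p = 0.765 in edgeR). Igf1r, the signalling receptor, was at 0.214, 0.197 and 0.147 FPKM in Prdx1 C52S, against 0.417, 1.69 and 0.361 in WT (-1.74, edgeR adjusted p = 0.112, and -0.87 without WT 8). The adaptor Irs1 was at 1.004 on the log2 scale and the binding protein Igfbp7 at -0.999. When WT 8 was left out, edgeR adjusted p was 0.0603 for Igf1r, 0.0815 for Irs1 and 0.0287 for Igfbp7. In all, 3 of 17 genes were lower and 2 higher at unadjusted p under 0.05 (17.6% and 11.8%, backgrounds 14.8% and 11.5%). Without WT 8 these were 3 and 1 (17.6% and 5.88%, backgrounds 11.1% and 11.2%). The Notch pathway, on which Dlk1 acts, had 12 of 13 negative fold changes, of which 5 passed unadjusted p 0.05 (38.5%, background 14.8%). They included the target Hey1 (-1.34) and the ligands Jag1 (-1.45, and -0.82 without WT 8) and Jag2 (-3.00, and -1.52 without WT 8). In edgeR, adjusted p without WT 8 was 0.0546 for Hey1, 0.198 for Jag1 and 0.158 for Jag2. Over all genes tested, 47.0% of fold changes were positive. Without WT 8, 4 of 13 were lower (30.8%, background 11.1%), and the median went from -0.40 to -0.22. Only 2 of 13 had every Prdx1 C52S library below every WT library (15.4%, background 18%), and the groups of Jag1 overlapped.

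Relatives of the surface members differed in direction. Among the glypicans and heparan sulphate enzymes, 3 of 15 were higher and 1 lower at unadjusted p under 0.05 (20% and 6.67%, backgrounds 11.5% and 14.8%). Without WT 8 these were 3 and 2 (20% and 13.3%, backgrounds 11.2% and 11.1%). Gpc1 was at 7.90, 8.40 and 8.14 FPKM in Prdx1 C52S, against 4.34, 1.52 and 4.67 in WT (log2 fold change 1.44, adjusted p = 0.121 in edgeR). Without WT 8 it was at 1.05 and passed (edgeR adjusted p = 0.00566, in a fit where 2.7% of genes were called higher). Gpc2 ran the other way, at -3.17, and at -1.57 without WT 8 (edgeR adjusted p = 0.145). In the Ly6 family, 3 of 13 were lower (23.1%, background 14.8%) and 1 higher (7.69%, background 11.5%). Without WT 8 these were also 3 and 1 (backgrounds 11.1% and 11.2%), and the median went from -0.58 to -0.36. The lower ones included Ly6e, at between 57.8 and 76.3 FPKM in Prdx1 C52S and between 111 and 195 in WT (-0.90, edgeR adjusted p = 0.0805, and 0.0430 without WT 8). Of 23 tetraspanins tested, 9 were lower (39.1%, background 14.8%) and 3 higher (13%, background 11.5%), with a median of -0.25. Without WT 8 the median was -0.009, with 8 of 24 lower (33.3%, background 11.1%) and 2 higher (8.33%, background 11.2%). Tspan4 was at -0.91 (edgeR adjusted p = 0.0553, and 0.0151 without WT 8) and the lysosomal Cd63 at -1.55 (edgeR adjusted p = 0.0680, and 0.0539 without WT 8). The leukocyte gene Cd53 was at -0.75 (edgeR adjusted p = 0.0853, and 0.0112 without WT 8).

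**Figure D4:**
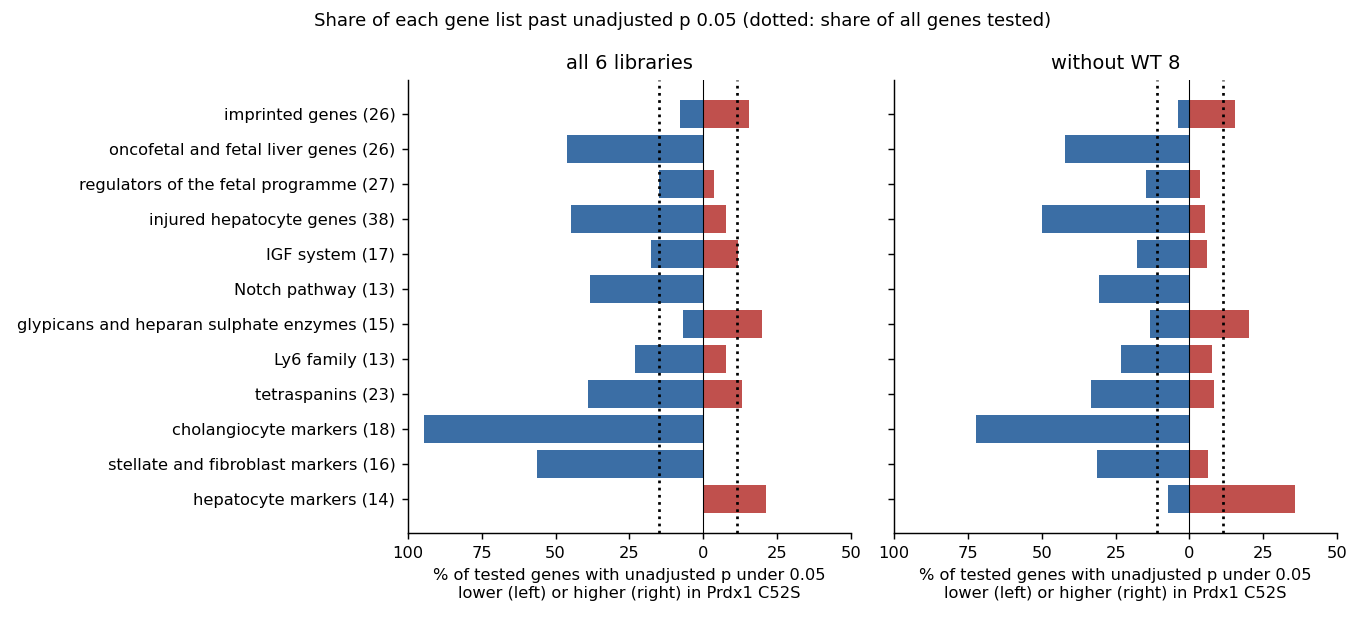
Percent of the tested genes of each list with unadjusted p under 0.05, lower in Prdx1 C52S to the left and higher to the right, with all 6 libraries and without WT 8; numbers in brackets are genes tested with all libraries, and dotted lines are the shares over all genes tested (14.8% lower and 11.5% higher with all libraries). The cholangiocyte list reaches 94.4% lower and the oncofetal and injured hepatocyte lists 46.2% and 44.7%, while the regulators lie at 14.8%.

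The tissue label was checked against hepatocyte markers. All 14 were detected in every library and their FPKM summed to between 40713 and 43098, with 3 of 14 higher (21.4%, background 11.5%) and 0 lower (background 14.8%) at unadjusted p under 0.05. Without WT 8, 5 were higher (35.7%, background 11.2%) and 1 lower (7.14%, background 11.1%). Stellate cell and fibroblast markers summed to between 115 and 149 FPKM in Prdx1 C52S and between 171 and 284 in WT, and 9 of 16 were lower (56.2%, background 14.8%). Without WT 8, 5 of 16 were lower (31.2%, background 11.1%). The hepatocyte sums of the groups overlapped.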

How the data were processed

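Poly(A)-selected liver RNA of 6 libraries (3 Prdx1 C52S, 3 WT) was analysed from a table of 29734 genes. Its columns, by their headers, hold FPKM and estimated counts as the authors deposited them. Tools listed without roles in the submitters' processing notes are StringTie 1.3.4d, HISAT2 2.0.4, cutadapt 1.9, edgeR, DESeq2 and UMI-tools. The deposited estimated counts are worth about 4 per fragment (low values peak at 4, with 6204 values), so that count models may treat low genes as more precise than they are. In the members with low counts, dividing counts by 4 hardly moved the SE. It went from 0.747 to 0.715 for H19, from 0.797 to 0.785 for Gpc3, from 0.241 to 0.242 for Afp and from 0.437 to 0.440 for Meg3. The notes name build mm9, but 26790 of 29642 shared identifiers have the coordinates of GENCODE M21, so that positions are given on GRCm38.

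After rounding, the estimated counts went into edgeR 4.0.16 under R 4.3.3 (filterByExpr, TMM, robust quasi-likelihood F-test, two-sided, Benjamini-Hochberg over 18931 genes, threshold 0.05), after a test on simulated data. The SE is the absolute log2 fold change over the square root of F. Library totals only, other size factors, 2 filters, DESeq2 1.42.0, limma 3.58.1, counts divided by 4 and each library left out were tried. Near-identical transcripts were sought with BLAST 2.17.0 (at least 95% identity over 150 bases). Members and lists were chosen with earlier results of these data known. Named genes are the members, Prdx1, at most 4 genes of each list by smallest p and 11 more chosen in advance (Igf1, Igf2r, Igf1r, Zhx2, Zbtb20, Hnf4a, Krt19, Epcam, Clec4f, Glul and Alb), besides genes that overlap a member. Rian, Sox9, Aldoa and the full mesothelial list were named after their values were seen. The widest of the ratios to single bile duct markers are not reported here. No test of a list was made: lists are described by counts beside those over all genes.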

Additional observations from a re-analysis of the deposited data

How the results depend on the processing

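Each group has 3 libraries, and Dlk1, Gpc3 and H19 rest on few fragments in some of them. With all libraries edgeR called 0 genes. The number called was 160 with library totals only (35 higher, 125 lower), 196 without the filter, 241 among genes with at least 1 FPKM in 3 libraries, 2843 with DESeq2, 1937 with limma-voom and library weights, 90 and 271 with limma on log2(FPKM + 1) (31 higher, 59 lower) and log2(FPKM + 0.1) (63 higher, 208 lower), 83 with counts divided by 4, and between 0 and 897 when each library was left out, with 897 without WT 8 and 132 without WT 9. The cause was not tested. Of the members, 2 were called by DESeq2 (Cd24a and Tspan8), 1 by limma-voom (Cd24a), and between 0 and 1 when each library was left out (Cd24a without WT 8). Afp turned to -0.12 with library totals only and to -0.047 and -0.092 with limma on log2(FPKM + 1) and log2(FPKM + 0.1). Gpc3 ran from -0.93 to 0.60 when each library was left out, with 0.39 without Prdx1 C52S 2 and 0.08 without Prdx1 C52S 4, and Meg3 from -0.029 (without Prdx1 C52S 4) to 0.89. Cd24a, Tspan8, H19 and Ly6d were negative under each of their 16 alternatives, from -3.15 to -1.59, -3.69 to -1.66, -2.52 to -0.72 and -0.94 to -0.09. Of 147 recomputed list medians, 136 moved by less than the median SD of single genes between replicates, WT 8 included. That is a wide measure for a median over many genes, so that this count does not show stable medians. Some within it changed sign, such as the mesothelial median (0.33, and -0.84 without Prdx1 C52S 1) and the endothelial one (0.09, and -0.15 without WT 8). Afp, Gpc3 and Meg3 gave no value with the filter at 1 FPKM. No paired analysis was possible because the groups share no replicate number.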

Other observations

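Other cell type lists that were set beside the members are given as values. Of 12 macrophage markers, 5 were lower at unadjusted p under 0.05 with all libraries (41.7%, background 14.8%) and 8 without WT 8 (66.7%, background 11.1%). Their FPKM summed to between 332 and 353 in Prdx1 C52S and between 610 and 733 in WT, and Lyz2 and C1qa led them at -1.06 and -0.86 on the log2 scale. Of 11 endothelial markers, 2 were lower (18.2%, background 14.8%), and their sums of 67.3 to 74.3 and 59.8 to 85.1 FPKM overlapped. Among 16 cell cycle genes, 10 were lower (62.5%, background 14.8%), with a median of -0.84. Without WT 8, 7 were lower (43.8%, background 11.1%), with a median of -0.75.

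Intestinal epithelium markers, set beside Tspan8, split in direction. Fabp2, which hepatocytes also express, was at 159, 173 and 161 FPKM in Prdx1 C52S 1, 2 and 4, against 97.0, 51.3 and 132 in WT 6, 8 and 9 (log2 fold change 1.06, edgeR adjusted p = 0.142, and 0.0372 without WT 8). Lgr5, a Wnt-responsive receptor, was at 1.01 (edgeR adjusted p = 0.0741, and 0.0382 without WT 8). Vil1 was at -2.35, and at -1.25 without WT 8, and Tff3, a mucosal peptide, at -3.51, with 45.7 FPKM in WT 8 against at most 6.20 elsewhere, and it was at -1.58 without that library. For Vil1 and Tff3, edgeR adjusted p without WT 8 was 0.200 and 0.194. Pancreatic acinar markers were low, with sums of 3.49 to 4.88 FPKM over the 4 genes in the table, nearly all of it Cela1.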
